A study of Homo sapiens with 36 samples.

Results

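LNCaP/Empty cells under vehicle were compared with LNCaP/Empty cells labelled Normal. LNCaP is an androgen-sensitive human prostate cancer cell line, and LNCaP/Empty is its derivative that carries the empty retroviral vector. The arrays labelled clone Empty with treatment Vehicle (n = 5) or treatment Normal (n = 6) were taken, which were 11 of the 36 BeadArrays of the series. All 48105 probes were used, and those with 1 gene name covered 20045 genes. The vehicle cells had spent 96 h in charcoal stripped serum, from which steroids and other small lipophilic molecules are removed, before 4 h with 0.01% ethanol. The labels do not define Normal. Routine culture was in RPMI with fetal calf serum, but the growth text that is repeated on every array, Normal arrays included, names the stripped serum. Serum hormones, growth factors, ethanol and time in culture therefore cannot be told apart in this comparison. LNCaP/Empty arrays with 1 nM of the synthetic androgen R1881 (n = 5), after the same stripped serum, are given as levels only. HIF12, a clone name in the labels that is taken here for the LNCaP clone with stable, oxygen-resistant HIF1a, gave the same comparison on other arrays (vehicle n = 5, Normal n = 5). The labels do not tell whether replicates were separate cultures, so p-values measure the spread between arrays, which may be technical.

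Androgens are steroid hormones that act on transcription in the nucleus. They switch on secreted proteases, membrane transport and lipid genes of the luminal prostate cell, and they lower a smaller set of genes that return when the hormone is taken away. Growth of LNCaP cells responds to androgen, and stripped serum is the usual way to withdraw it in culture. The stripping also removes other steroids, thyroid hormone, retinoids and lipids, and growth factors of serum act through other routes.

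Between 15747 and 17052 probes were detected on a vehicle array and between 16177 and 16757 on a Normal array (detection p under 0.01). Over all probes, the pairwise correlations of the 11 arrays lay between 0.98 and 0.99. Luminal prostate markers averaged 9.98 to 10.79 (log2), and the epithelial keratins KRT8 and KRT18 were detected on all 11 arrays. Of the lists for other cell types, CD68 alone of 9 leukocyte markers and VWF alone of 7 endothelial markers were detected on all 11 arrays, and neither was called. Of 11 fibroblast markers ACTA2 and VIM were detected on all arrays. PTPRC and MS4A1 of leukocytes, PECAM1 and KDR of endothelium, and LUM of fibroblasts were detected on none. The mean log2 level of the leukocyte list was 5.28 to 5.51 with vehicle and 5.32 to 5.42 in Normal, and that of the endothelial list was 5.22 to 5.33 and 5.23 to 5.42. Fewer cells of a type and less RNA per cell cannot be told apart in these bulk samples.

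With vehicle, 659 genes (3.29% of the 20045 tested) were higher than in Normal and 587 genes (2.93%) were lower, at a Benjamini-Hochberg adjusted p under 0.05 in limma with 1.5-fold or more on any probe of the gene. UGT2B11, 1 further gene, had probes called in both directions. At least a 2-fold change was reached by 176 of the higher and 94 of the lower genes. Without background correction, which raises the floor of dim probes, 305 genes were higher and 214 lower. The genes that were lower included those of the androgen response, DNA replication, mitosis, the amino acid response and ribosome production. The genes that were higher included those that androgen represses, steroid-conjugating enzymes, genes that rise on growth factor withdrawal and lysosomal genes.

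**Figure D1:**
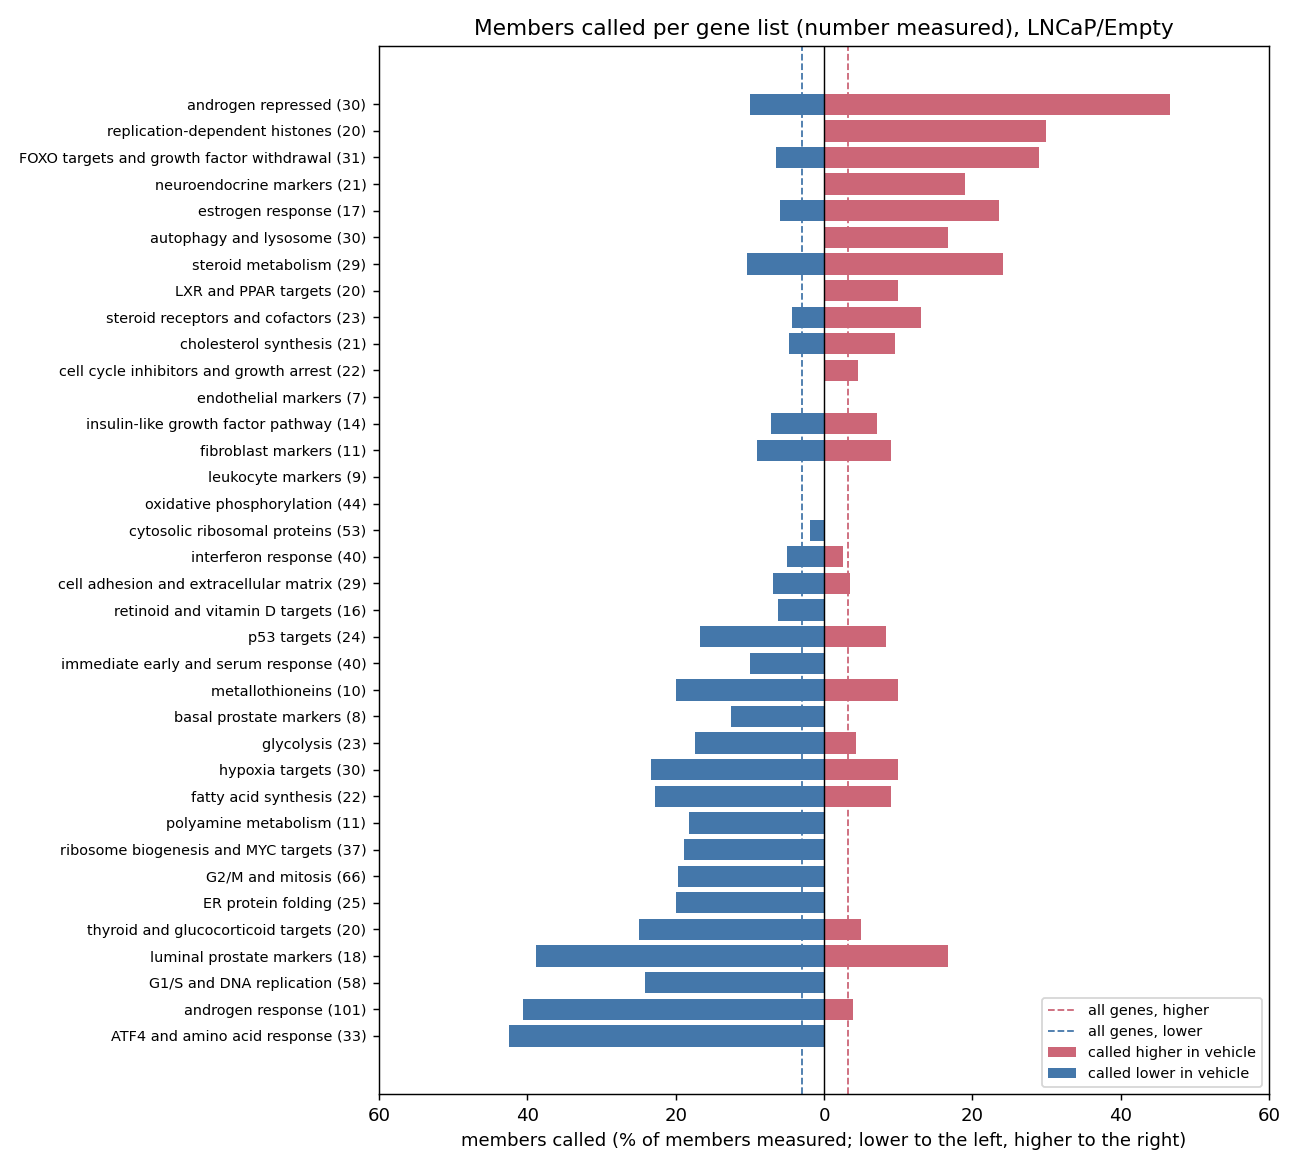
Share of the measured members of each gene list called in LNCaP/Empty (x axis, % of members, lower in vehicle to the left and higher to the right; the number measured stands in parentheses). Dashed lines mark the shares over all 20045 genes, 3.29% higher and 2.93% lower. The ATF4 and androgen response lists reach furthest to the left, with 42.4% and 40.6% of members lower, and the androgen repressed list furthest to the right, with 46.7% higher.

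Genes induced by androgen were lower with vehicle than in Normal. Of 101 measured members of the androgen response list, 41 (40.6%, beside 2.93% of all genes) fell and 4 rose, and the median member stood at -0.33 on the log2 scale, beside -0.01 over all genes. KLK2 and KLK3, the secreted kallikrein proteases of which KLK3 is prostate-specific antigen, TMPRSS2, a membrane serine protease, and FKBP5, a chaperone of steroid receptors, were among them. Without background correction the count was 23 in place of 41.

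The normalized log2 level of KLK2 was 5.67, 6.10, 5.49, 6.57 and 5.26 on vehicle replicates 1 to 5. On the Normal arrays it was lowest at 8.48, with a median of 8.63 and a highest value of 8.95. No vehicle array came near the Normal range, and replicates 2 and 4 stood above the other vehicle arrays. KLK2 was detected on only 2 of the 5 vehicle arrays, so the fitted drop of 7.19-fold (-2.85 ± 0.20, SE, limma, adjusted p = 1.0e-12) rests in part on signals near background. KLK3 was at 7.93, 8.16, 7.56, 7.93 and 7.20 with vehicle. Its Normal arrays ran from 9.56 through a median of 9.72 to 9.95. KLK3 fell 3.92-fold (-1.97 ± 0.14, adjusted p = 7.2e-13). As for KLK2, replicate 5 was the lowest vehicle array and no array of the groups overlapped.

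TMPRSS2 was at 10.80, 11.33, 10.72, 11.34 and 10.50 with vehicle. Its Normal values were 12.03 to 12.51 (median 12.13). Replicates 2 and 4 were again the highest of the vehicle arrays and replicate 5 the lowest, and the drop was 2.41-fold (-1.27 ± 0.18, adjusted p = 2.1e-06). FKBP5 was 9.90 ± 0.10 (SD, n = 5) with vehicle and 10.96 ± 0.17 (n = 6) in Normal, a 2.09-fold drop (adjusted p = 4.1e-10). STK39, a kinase that activates ion cotransporters, was 10.89 ± 0.12 and 12.28 ± 0.15, a 2.61-fold drop (adjusted p = 2.1e-16). The vehicle and Normal arrays of both genes were apart, and those of FKBP5 showed none of the spread that TMPRSS2 had among vehicle arrays.

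IQGAP2, a scaffold of the cortical cytoskeleton, was detected on all 6 Normal arrays and on no vehicle array, and against the detection limit it was at least 2.91-fold lower. TRPM8, a cold-sensitive calcium channel, fell on both of its probes (-1.97 and -1.84), of which 1 was detected on 4 vehicle arrays and the other on none. The transporter ABCC4 (-1.41), the phosphatase INPP4B (-1.38), the sugar transporter SLC45A3 (-1.03) and the aldehyde dehydrogenase ALDH1A3 (-1.06) fell too. The zinc glycoprotein AZGP1 (-0.83) and TPD52 (-0.67) moved less, and both were detected on only some vehicle arrays. KLK4, another kallikrein, differed by -0.33 and NDRG1 by -0.40, neither of which passed.

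SGK1, a serum- and glucocorticoid-regulated kinase that androgen also induces, did not pass. Its vehicle arrays read 6.61 ± 0.20 (SD) and its Normal arrays 6.94 ± 0.12 (-0.33, adjusted p = 0.16). With R1881 the level was 11.11 ± 0.12 (n = 5). The Normal level of SGK1 thus lay beside the vehicle level and far from that with R1881. For CEBPD, a transcription factor of steroid and stress responses, the means were 9.50 ± 0.09 with vehicle, 10.14 ± 0.07 in Normal and 10.62 ± 0.13 with R1881, and it fell 1.55-fold with vehicle (adjusted p = 3.7e-07), or by 0.57 on the log2 scale and short of the threshold without background correction.

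The levels with R1881 stood at different places relative to Normal from gene to gene. These arrays share the stripped serum and the 4 h with the vehicle arrays, and no test was made on them. TMPRSS2 (13.13 ± 0.15) and FKBP5 (12.27 ± 0.13) were above their Normal means with R1881. TUBA3D, an alpha-tubulin that was detected on 1 vehicle array, was 5.69 ± 0.49 with vehicle, 7.74 ± 0.23 in Normal and 10.10 ± 0.15 with R1881. The means of KLK2 (8.32 ± 0.17), KLK3 (9.03 ± 0.04) and STK39 (11.57 ± 0.14) with R1881 lay between those of vehicle and Normal. IQGAP2 read 5.65 ± 0.32 with R1881, close to its vehicle level of 5.21 ± 0.25 and below its Normal level of 7.43 ± 0.10.

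**Figure D2:**
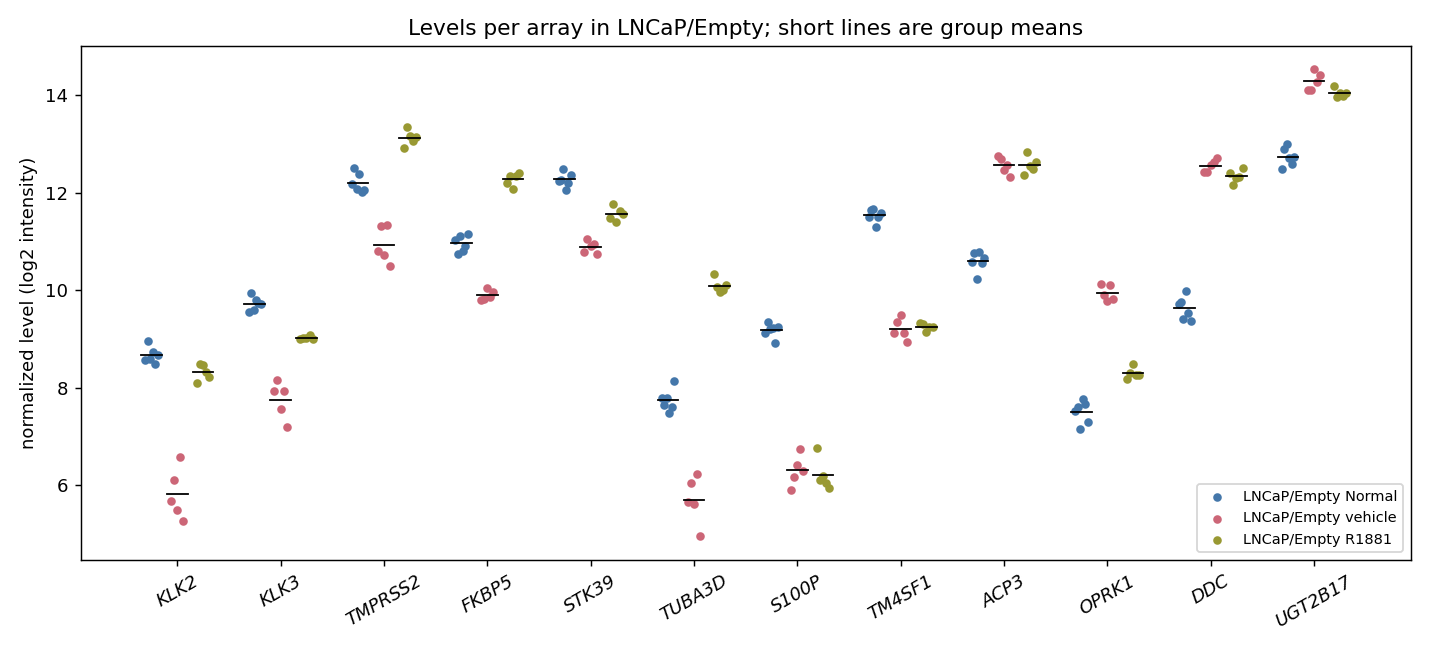
Normalized level (y axis, log2 intensity) of 12 genes on each LNCaP/Empty array, Normal (n = 6), vehicle (n = 5) and R1881 (n = 5), with short lines at the group means. Vehicle arrays of KLK2 (5.26 to 6.57) lie below all Normal arrays (8.48 to 8.95), and those of DDC (12.43 to 12.72) above all of theirs (9.36 to 9.99). S100P, TM4SF1, ACP3 and DDC have R1881 arrays at the vehicle level.

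Promoters of KLK3 and STK39 are shown because both genes fell and both windows hold AGAACA, the hexamer of steroid hormone response elements (capitals). The 250 bases before the RefSeq start site (GRCh38.p14) are given 5′ to 3′ on the strand of the gene, KLK3 on the plus strand and STK39 on the minus strand.
KLK3 chr19:50854665-50854914: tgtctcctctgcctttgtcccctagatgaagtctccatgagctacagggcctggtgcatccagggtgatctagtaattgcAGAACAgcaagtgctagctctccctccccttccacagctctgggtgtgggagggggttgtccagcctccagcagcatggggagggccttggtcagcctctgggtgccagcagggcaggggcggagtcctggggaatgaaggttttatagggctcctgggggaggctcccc
STK39 chr2:168247596-168247845: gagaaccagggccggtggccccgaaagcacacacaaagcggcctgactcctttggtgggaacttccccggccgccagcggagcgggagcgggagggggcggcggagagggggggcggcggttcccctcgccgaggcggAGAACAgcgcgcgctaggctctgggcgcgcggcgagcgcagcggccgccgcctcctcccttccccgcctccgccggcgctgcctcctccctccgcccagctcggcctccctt
The hexamer begins 170 bases before the start in KLK3 and 112 bases before it in STK39. In windows of 300 bases (250 before and 50 after the start), searched on both strands, AGAACA was present in 11 of 147 promoters (7.48%) of 82 members of the androgen response list and in 14.8% of all 35116 promoters. Among 66 promoters of members that fell it was in 7 (10.6%). A match describes letters only.

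Members of the list that rose were ACP3, HSD17B14, ADAMTS1 and STEAP2, the last on another of its probes than the one shown in other values. ACP3, the secreted prostatic acid phosphatase, was at 12.75, 12.70, 12.47, 12.57 and 12.33 with vehicle. In Normal it was lowest at 10.23, with a median of 10.62 and a highest of 10.78. All vehicle arrays were above all Normal arrays, a rise of 3.92-fold (1.97 ± 0.10, adjusted p = 7.3e-17). With R1881 ACP3 read 12.58 ± 0.17, at the vehicle level. FOLH1, prostate-specific membrane antigen, rose 1.51-fold (11.71 ± 0.14 against 11.11 ± 0.15, adjusted p = 9.9e-05). That call lay at the fold threshold, and without Normal replicate 4 or vehicle replicates 1 or 2 the value was 0.55, 0.57 and 0.56, below it.

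Genes that androgen represses were higher. Of 30 measured members, 14 (46.7%, beside 3.29% of all genes) rose and 3 fell, with UGT2B11 counted in neither, and the median member stood at 0.32. DDC, an enzyme that makes dopamine and serotonin, was at 12.43, 12.43, 12.58, 12.62 and 12.72 with vehicle. Its Normal arrays were at 9.36 at the lowest, 9.63 at the median and 9.99 at the highest. This 7.60-fold rise (2.93 ± 0.10, adjusted p = 2.4e-21) had very little spread among vehicle arrays, and the R1881 arrays were at 12.34 ± 0.13.

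OPRK1, the kappa opioid receptor, was at 10.12, 9.90, 9.79, 10.12 and 9.82 with vehicle. In Normal it ranged from 7.15 through a median of 7.56 to 7.76. It rose 5.46-fold (2.45 ± 0.11, adjusted p = 4.4e-18), and its R1881 arrays (8.30 ± 0.12) lay between both groups. PCDH11X, a protocadherin detected on 1 Normal array, rose by a fitted 2.47 and BCHE, butyrylcholinesterase, by 1.66. SI, sucrase-isomaltase, was detected on all vehicle and no Normal arrays and was at least 1.68-fold higher. The signaling regulators CAMK2N1 (1.41), CITED2 (1.27) and ACKR3 (1.03) rose as well. ST6GALNAC1 (-1.38, fitted against vehicle arrays where it was not detected), UGT2B28 (-1.01) and GRIN3A (-0.67) fell.

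Enzymes that make, convert or conjugate steroids were shifted in both directions, 7 of 29 members higher (24.1%) and 3 lower (10.3%), with a median of -0.03. The UGT2B enzymes attach glucuronic acid to androgens so that they leave the cell. UGT2B17 was 14.29 ± 0.19 with vehicle and 12.74 ± 0.19 in Normal, a 2.92-fold rise (adjusted p = 5.5e-13). UGT2B15 rose 2.17-fold (12.12 ± 0.12 against 11.00 ± 0.33, adjusted p = 0.00065) and UGT2B10 by 1.15. The copies of this family are nearly identical in sequence, so their probes may not be specific, and UGT2B28 fell while its relatives rose. AKR1C3, which makes testosterone from androstenedione, was not detected on any Normal array and was at least 2.40-fold higher, and HSD17B14, which oxidizes estradiol, at least 1.99-fold higher. CYP11A1, the side-chain cleavage enzyme that starts steroid synthesis, fell by 0.67 on the log2 scale.

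Among 23 measured steroid receptors and cofactors, 3 were higher (13.0%) and 1 lower (4.35%). The 3 became 1 without vehicle replicate 4 or 5, and none passed without background correction. NRIP1, a corepressor listed with the estrogen response, was 10.49 ± 0.14 with vehicle and 9.81 ± 0.18 in Normal (1.60-fold, adjusted p = 4.1e-06). GATA2, a zinc finger transcription factor, was called at 1.51-fold (adjusted p = 0.00061) and fell short of the fold threshold in 5 of the 11 sets with 1 array left out, the lowest being 0.49 without vehicle replicate 5. ESR2 was called higher although it was not detected on any of the 11 arrays, so that no fold is given. Of 17 estrogen response genes, 4 rose (23.5%, beside 3.29% of all genes) and 1 fell. Without vehicle replicate 5 the count that rose was 2. By the brightest probe of each gene, 9 of the 17 were detected on at least 1 of the 11 arrays. The gene that fell was XBP1, which lost its call without Normal replicate 2. TFF3, a secreted trefoil peptide, rose by 0.90, and GPER1, the membrane estrogen receptor, which was on no list, is given with the largest changes.

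Genes of DNA replication and mitosis were lower almost throughout. Of 58 genes of G1/S and DNA replication, 14 (24.1%) fell and none rose, and 54 had a value below 0 (median -0.42). Of 66 genes of G2/M and mitosis, 13 (19.7%) fell and none rose, and 65 had a value below 0 (median -0.39). Most members thus differed by less than 1.5-fold, and the count for G2/M depended on the processing: 3 without background correction, 5 with plain normexp correction and 23 with median scaling. The counts for G1/S ranged from 8 without background correction to 19 with median scaling. Shares of cells in each phase were not measured.

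Factors that load and copy DNA fell. CDT1, which licenses replication origins, fell by 1.01 and MCM10, which starts the fork, by 1.00. RFC3, a subunit of the clamp loader, was 8.15 ± 0.22 with vehicle and 9.08 ± 0.22 in Normal (1.90-fold, adjusted p = 2.3e-08). MCM2, part of the replicative helicase, was at 9.33, 8.89, 9.27, 9.29 and 9.30 with vehicle. Its Normal arrays ran from 9.82 through 9.88 to 9.99. MCM2 fell 1.59-fold (-0.67 ± 0.10, adjusted p = 4.4e-06), with vehicle replicate 2 below the other vehicle arrays. The replication genes POLD1 (-0.72), PRIM1 (-0.61) and GINS3 (-0.75), the repair gene BRCA1 (-0.83) and the regulators E2F2 (-0.74) and E2F7 (-0.98) also fell, whereas E2F1 (7.21 ± 0.35 against 7.24 ± 0.36) did not pass.

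Mitotic genes behaved alike. HMMR, a spindle protein and hyaluronan receptor, was at 9.85, 10.19, 10.17, 10.17 and 9.66 with vehicle. In Normal it was 10.69 at the lowest, 10.90 at the median and 11.06 at the highest. It fell 1.84-fold (-0.88 ± 0.12, adjusted p = 2.4e-06), with no overlap of arrays and replicates 1 and 5 lowest. ASPM, a spindle pole protein, fell 1.65-fold (8.55 ± 0.06 against 9.28 ± 0.14, adjusted p = 7.1e-08). ANLN (-0.81), which forms the cleavage furrow, the checkpoint kinases TTK (-0.68) and BUB1 (-0.62), the transcription factor FOXM1 (-0.68) and separase, ESPL1 (-0.67), fell as well. TOP2A (10.92 ± 0.12 against 11.07 ± 0.11, adjusted p = 0.40), CCNB1 (9.65 ± 0.26 against 9.89 ± 0.18, adjusted p = 0.30) and MKI67 (5.66 ± 0.30 against 6.00 ± 0.26, adjusted p = 0.33) did not pass. MKI67 was detected on only 2 vehicle and 4 Normal arrays.

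**Figure D3:**
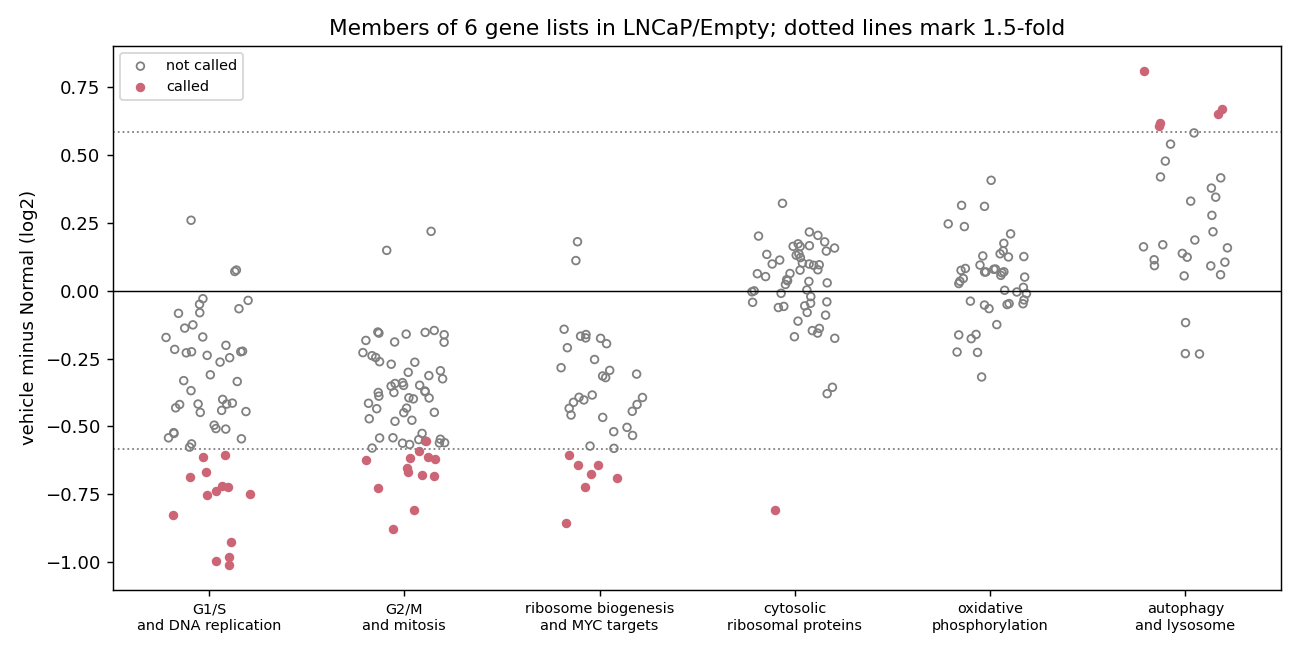
Difference between vehicle and Normal (y axis, log2) for every measured member of 6 gene lists in LNCaP/Empty, with the probe of the largest moderated t per gene; filled points are members called on at least 1 probe and dotted lines mark 1.5-fold. Replication, mitosis and ribosome biogenesis genes lie mostly below 0, ribosomal protein and oxidative phosphorylation genes around 0 with RPL28 (-0.81) apart, and lysosomal genes mostly above 0.

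Promoters of HMMR and ASPM are shown because both genes fell and because cell cycle promoters carry a known pair of motifs, TTTGAA, the core of the CHR element that DREAM and MuvB complexes use, and CCAAT, the site of the NF-Y factor. Capitals mark both motifs on either strand (TTCAAA and ATTGG on the opposite strand). The windows are the 250 bases before the RefSeq start (GRCh38.p14), 5′ to 3′ on the strand of the gene, HMMR on the plus strand and ASPM on the minus strand.
HMMR chr5:163460382-163460631: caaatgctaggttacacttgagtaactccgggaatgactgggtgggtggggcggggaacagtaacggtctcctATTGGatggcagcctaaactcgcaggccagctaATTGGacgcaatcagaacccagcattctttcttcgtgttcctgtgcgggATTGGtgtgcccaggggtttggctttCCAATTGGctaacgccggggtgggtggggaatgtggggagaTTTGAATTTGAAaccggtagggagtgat
ASPM chr1:197146670-197146919: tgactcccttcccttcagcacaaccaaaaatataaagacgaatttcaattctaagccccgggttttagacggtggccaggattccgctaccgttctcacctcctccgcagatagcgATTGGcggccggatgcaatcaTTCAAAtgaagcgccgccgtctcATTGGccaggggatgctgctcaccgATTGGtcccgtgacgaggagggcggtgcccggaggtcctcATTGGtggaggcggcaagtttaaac
HMMR held TTTGAA beginning 28 and 22 bases before the start and 5 CCAAT boxes, and ASPM held 1 and 4. In windows of 300 bases TTTGAA was present in 42 of 69 promoters (60.9%) of 56 G2/M genes and in 15.2% of all promoters. CCAAT was present in 51 (73.9%) and in 34.6%. The E2F motif TTTCGCGC was in 7 of 64 promoters (10.9%) of 48 G1/S genes and in 0.515% of all promoters, with a match 2 bases after the start of MCM2. Of the 10 promoters of G2/M genes that fell, 7 held TTTGAA. These shares hold for the lists whether or not a member passed.

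The listed inhibitors of the cell cycle were not shifted with them. Of 22 genes of growth arrest, 1 rose (4.55%, beside 3.29% of all genes). It was CCNG2, a cyclin that restrains division (0.78, 1.71-fold, adjusted p = 7.7e-06). CCNG2 did not reach the fold threshold without background correction (0.43) or with plain normexp (0.48). The kinase inhibitor CDKN1B was 9.43 ± 0.16 with vehicle and 9.67 ± 0.08 in Normal (adjusted p = 0.40), and the brighter of the probes of CDKN1A read 11.81 and 11.79 (adjusted p = 0.973). MYC was 10.83 ± 0.24 and 11.29 ± 0.26 (-0.46, adjusted p = 0.033) and did not reach 1.5-fold, with overlapping arrays.

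Genes that build ribosomes were lower, while the ribosomal proteins themselves were not. Of 37 genes of ribosome biogenesis and MYC targets, 7 (18.9%) fell, none rose and 35 had a value below 0 (median -0.39). Of 53 cytosolic ribosomal protein genes, 1 (1.89%) fell and the median was 0.03, and of 44 genes of oxidative phosphorylation none passed (median 0.03). LYAR, a nucleolar factor, fell 1.81-fold (9.93 ± 0.09 against 10.78 ± 0.09, adjusted p = 3.4e-10). NOP2, which methylates ribosomal RNA, fell 1.65-fold (10.32 ± 0.11 against 11.04 ± 0.04, adjusted p = 5.3e-09) and the nucleolar protein NCL 1.61-fold (12.20 ± 0.13 against 12.89 ± 0.12, adjusted p = 1.7e-08). The arrays of all of these were apart.

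Genes of the amino acid response were lower. Of 33 genes of the ATF4 and amino acid response, 14 (42.4%) fell, none rose and 32 had a value below 0, with a median of -0.53. ATF4 is a transcription factor that is translated when amino acids are short or proteins misfold, and its targets import and make amino acids. TRIB3, a pseudokinase, was at 11.04, 10.85, 10.97, 11.01 and 11.10 with vehicle. The Normal arrays spanned 11.80 to 12.22 with a median of 11.89. TRIB3 fell 1.94-fold (-0.96 ± 0.09, adjusted p = 9.6e-10), with tight groups far apart. The transporters SLC7A5 (-1.03), SLC7A1 (-0.81) and SLC7A11 (-0.74) fell, as did the enzymes CTH (-1.25) and MTHFD2 (-0.71) and the tRNA synthetase IARS1 (-0.64).

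Of 25 genes of ER protein folding, 5 (20.0%) fell, none rose, 6 had a value above 0 and the median was -0.37. The chaperone HSP90B1 was at -0.51 and DNAJB11 at -0.45, short of 1.5-fold, and HSPA5 (-0.06) did not pass. MANF, a secreted factor of the unfolded protein response, was at 12.16, 11.97, 12.13, 12.10 and 12.25 with vehicle. Its Normal arrays ran from 12.98 through 13.07 to 13.16. It fell 1.93-fold (-0.95 ± 0.06, adjusted p = 1.4e-13). PDIA4 (-0.80), a disulfide isomerase, and DNAJC3 (-0.75), a cochaperone, fell too. XBP1, the transcription factor of this response, fell 1.52-fold (adjusted p = 3.5e-06), with a value of -0.57 and no call without Normal replicate 2.

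Genes of the lysosome and of autophagy were higher. Of 30 members, 5 (16.7%) rose, none fell and 28 had a value above 0 (median 0.20). NEU1, the lysosomal sialidase, was at 9.68, 9.71, 9.61, 9.63 and 9.70 with vehicle. Its Normal values were 8.74 to 9.25 (median 8.76), the highest being replicate 4. It rose 1.76-fold (0.81 ± 0.09, adjusted p = 3.4e-08). MAP1LC3B (0.67), which coats autophagosomes, the protease CTSD (0.65), the proton pump subunit ATP6V0D1 (0.62) and the membrane protein LAMP2 (0.61) rose as well. All but NEU1 were close to the fold threshold, and without vehicle replicate 5 the count was 3.

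Promoters of SRM, which fell, and NEU1, which rose, are shown because both hold CACGTG (capitals), a site that MYC and the lysosomal factors TFEB and TFE3 share. The windows are again the 250 bases before the RefSeq start (GRCh38.p14) on the strand of the gene, minus for both.
SRM chr1:11060019-11060268: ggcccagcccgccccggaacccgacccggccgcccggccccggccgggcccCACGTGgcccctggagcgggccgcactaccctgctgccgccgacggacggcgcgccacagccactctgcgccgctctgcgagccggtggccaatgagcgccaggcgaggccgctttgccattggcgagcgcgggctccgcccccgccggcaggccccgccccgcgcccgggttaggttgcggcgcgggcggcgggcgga
NEU1 chr6:31862822-31863071: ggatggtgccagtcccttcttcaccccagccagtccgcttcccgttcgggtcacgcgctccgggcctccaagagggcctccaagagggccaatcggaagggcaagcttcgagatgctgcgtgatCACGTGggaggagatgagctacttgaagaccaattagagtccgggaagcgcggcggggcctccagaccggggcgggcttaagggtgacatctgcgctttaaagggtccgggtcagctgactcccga
The motif begins 199 bases before the start of SRM and 126 bases before that of NEU1. In windows of 300 bases it was in 15 of 40 promoters (37.5%) of 32 ribosome biogenesis genes, in 6 of 30 (20.0%) of 24 lysosomal genes and in 7.26% of all promoters. The same letters thus stood before genes of either direction. SRM, spermidine synthase, was 10.54 ± 0.13 with vehicle and 11.15 ± 0.05 in Normal (1.52-fold lower, adjusted p = 3.0e-07). Without vehicle replicates 4 or 2 its value was -0.58 and -0.57, below the fold threshold.

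Genes that FOXO factors switch on when growth factors are withdrawn were mostly higher among those that passed. Of 31 members, 9 (29.0%) rose and 2 fell, but the median was -0.01. SESN1, which restrains mTORC1, rose 2.27-fold (11.57 ± 0.13 against 10.39 ± 0.16, adjusted p = 1.8e-13). PIK3IP1, an inhibitor of PI3 kinase, rose 2.13-fold (9.16 ± 0.07 against 8.07 ± 0.17, adjusted p = 2.9e-12), and PINK1, a mitochondrial kinase, 2.30-fold (9.10 ± 0.20 against 7.90 ± 0.20, adjusted p = 4.4e-11). SESN3 (0.73), HBP1 (0.72), YPEL3 (0.64) and FOXO3 (0.61) rose too. IRS2, an insulin receptor substrate, fell 1.57-fold (adjusted p = 0.0042), but its arrays overlapped and without vehicle replicates 5 or 3 it was at -0.57 and -0.58. Its level with R1881 was 8.25 ± 0.14, above both vehicle (6.28 ± 0.32) and Normal (6.93 ± 0.17).

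IGFBP3, a carrier of insulin-like growth factors, was at 9.49, 9.22, 9.94, 9.46 and 11.11 with vehicle. In Normal it was 7.00 at the lowest, 7.29 at the median and 7.85 at the highest. It rose 5.70-fold (2.51 ± 0.24, adjusted p = 8.6e-10), and replicate 5 was higher than the other vehicle arrays. The R1881 arrays of IGFBP3 were at 10.41 to 11.08, above vehicle replicates 1 to 4 and just below replicate 5. Of 40 immediate early and serum response genes none rose and 4 fell (10.0%). KLF4, a zinc finger factor, fell on both of its probes (-1.80 and -0.99), which were detected on all Normal arrays and on no more than 1 vehicle array. SRF, the serum response factor, fell 1.70-fold (9.80 ± 0.23 against 10.57 ± 0.16, adjusted p = 1.6e-07).

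Lipid genes did not move as 1 group. Of 22 genes of fatty acid synthesis, 5 fell (22.7%) and 2 rose, with a median of -0.36. SCD, the desaturase that makes oleate, was 12.99 ± 0.08 with vehicle and 13.60 ± 0.06 in Normal (1.52-fold, adjusted p = 2.3e-10), and without vehicle replicate 2 it was at -0.57. FADS2 (-0.74) and ELOVL5 (-0.76), which desaturate and elongate polyunsaturated fatty acids, fell. FASN, fatty acid synthase, was 13.64 ± 0.18 and 14.20 ± 0.10 (-0.57, adjusted p = 1.2e-06) and missed the fold threshold, which it passed in 4 of the 11 sets with 1 array left out, at -0.59 to -0.61 (vehicle replicates 1, 4 and 5 and Normal replicate 1).

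Cholesterol synthesis was close to the median of all genes: of 21 members 2 rose (9.52%), 1 fell (4.76%), and the median was -0.05. TM7SF2 (0.87) and SC5D (0.70), late enzymes of the pathway, rose, while HMGCS1 (10.82 ± 0.07 against 10.69 ± 0.08, adjusted p = 0.53) and SQLE (-0.34) did not pass. The probes of INSIG1, which holds SREBP in the ER, disagreed. The bright one read 11.03 ± 0.13 and 11.39 ± 0.13 and was not called (-0.37), and the dim one, detected on no vehicle array, was called lower. INSIG2, its relative, rose 1.84-fold (9.90 ± 0.07 against 9.01 ± 0.21, adjusted p = 1.7e-08). Of 20 LXR and PPAR targets 2 rose (10.0%) and none fell. ABCG1, a cholesterol exporter, rose 2.11-fold (8.88 ± 0.09 against 7.80 ± 0.12, adjusted p = 1.1e-11), and LPCAT3, which remodels phospholipids, 1.80-fold (11.50 ± 0.12 against 10.66 ± 0.12, adjusted p = 6.7e-11).

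Of 20 thyroid and glucocorticoid targets, 5 fell (25.0%) and 1 rose, DIO1, which activates thyroid hormone (0.72). Those that fell were MT2A, MT1X, FKBP5, CEBPD and TSC22D3, of which FKBP5 and TSC22D3 are also on the androgen response list. MT2A, a metal-binding protein, was 10.99 ± 0.07 with vehicle and 12.32 ± 0.26 in Normal (2.53-fold, adjusted p = 6.3e-12), while MT1F was at 0.51 and did not pass. Metallothionein genes are close copies, and their probes may share signal. Of 16 retinoid and vitamin D targets 1 fell (6.25%), DHRS3, which reduces retinal (2.03-fold, 6.78 ± 0.42 against 7.80 ± 0.17, adjusted p = 6.1e-05). By the brightest probe of each gene, 7 of these 16 were detected on at least 1 of the 11 arrays. CYP26A1, a direct retinoic acid target, was not detected on any of the 11 arrays.

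Of 18 luminal markers 7 fell (38.9%) and 3 rose (median -0.05), and their mean log2 level was 9.98 to 10.26 on vehicle and 10.59 to 10.79 on Normal arrays. The 3 that rose became 1 without vehicle replicate 1 and without background correction. All of the 7 that fell but MSMB are on the androgen response list too. MSMB, a secreted seminal plasma protein, was detected on no vehicle array and was at least 3.03-fold lower. Of 21 neuroendocrine markers 4 rose (19.0%, beside 3.29% of all genes) and none fell (median 0.06). Their mean level was 6.22 to 6.31 on vehicle and 5.86 to 5.97 on Normal arrays. By the brightest probe of each gene, only 6 of the 21 were detected on at least 1 of the 11 arrays. The median and the mean level thus rest mostly on undetected genes. NTS, the peptide neurotensin, was not detected in Normal and was at least 2.88-fold higher. TUBB3, a neuronal tubulin, rose 2.41-fold (9.75 ± 0.22 against 8.48 ± 0.08, adjusted p = 7.9e-10) and ENO2, neuronal enolase, 1.62-fold (adjusted p = 0.0023), which without background correction was 0.49 on the log2 scale and not called. DDC was the fourth. The defining markers CHGA (-0.25) and SYP (-0.10) did not pass.

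Of 8 basal markers 1 fell (12.5%), the integrin ITGA6 (-0.74), which was detected on no vehicle array. Without background correction ITGA6 was at -0.32 and with plain normexp at -0.38, and it was not called in either. Basal markers averaged 4.85 to 5.04 with vehicle and 4.99 to 5.06 in Normal. Fibroblast markers averaged 5.68 to 5.98 and 5.85 to 6.05. ACTA2, smooth muscle actin, which stands on the fibroblast list, fell 3.58-fold (8.51 ± 0.14 against 10.35 ± 0.15, adjusted p = 1.4e-15), and its relative ACTG2 was detected on no vehicle array and was at least 1.66-fold lower. Actin genes of smooth muscle are known targets of SRF. VIM, vimentin, rose on 1 of its probes (0.70) and was at 0.47 on the other. The part of other cells in these values was not tested.

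Glycolysis and hypoxia genes fell in part. Of 23 glycolysis genes 4 fell (17.4%) and 1 rose, and of 30 hypoxia targets 7 fell (23.3%) and 3 rose. HK2, the first enzyme of glycolysis, was 7.62 ± 0.12 with vehicle and 8.98 ± 0.27 in Normal (2.56-fold, adjusted p = 8.3e-12). LDHA, lactate dehydrogenase, fell 1.59-fold (13.36 ± 0.11 against 14.03 ± 0.23, adjusted p = 3.1e-06). LDHB was called at 1.57-fold and was at -0.53, not called, without vehicle replicate 5. The oxygen sensor EGLN1 (-1.04) and the repressor BHLHE40 (-0.98) fell, and BNIP3L (0.62), a mitophagy receptor, rose. HIF1A itself was 8.36 ± 0.38 and 8.72 ± 0.12 (adjusted p = 0.58).

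Of 24 p53 targets 4 fell (16.7%) and 2 rose (8.33%), beside 2.93% and 3.29% of all genes. GDF15, a stress cytokine, was 2.43-fold lower (11.53 ± 0.14 against 12.81 ± 0.34, adjusted p = 2.4e-08). TP53INP1, an autophagy factor, was 1.67-fold higher (11.32 ± 0.21 against 10.58 ± 0.16, adjusted p = 2.8e-06). Of 40 interferon response genes 2 fell (5.00%) and 1 rose (2.50%), close to the shares of all genes. Of 11 genes of polyamine metabolism 2 fell (18.2%), SRM and MTAP, which salvages methionine (1.83-fold, adjusted p = 5.1e-10).

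Of 20 replication-dependent histone genes, 6 (30.0%) rose and none fell, although the genes of DNA replication were lower. H2AC6 (1.31), H4C8 (1.07), H2AC8 (1.00) and H2AC18 (0.77) led, and the mean of the list was 8.29 to 8.46 on vehicle and 8.00 to 8.18 on Normal arrays. H4C8 was 10.15 ± 0.23 with vehicle and 9.08 ± 0.17 in Normal (2.10-fold, adjusted p = 1.1e-05). The median of the list, over 1 probe a gene, was 0.08. Histone genes of this class are close copies, and their transcripts are mostly without a poly(A) tail.

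The largest increases outside these lists were in genes of varied function. PLA2G2A, a secreted phospholipase, was at 9.56, 9.54, 9.49, 9.48 and 9.75 with vehicle. The Normal arrays spanned 6.11 to 7.02 with a median of 6.72. It rose 7.56-fold (2.92 ± 0.15, adjusted p = 1.7e-16), and its R1881 arrays read 9.47 ± 0.10. BRDT, a bromodomain protein of the testis, rose 7.39-fold (8.55 ± 0.16 against 5.66 ± 0.57, adjusted p = 4.5e-12). BRDT was detected on 3 Normal arrays and MID1 on 2. MID1, a ubiquitin ligase, rose 6.38-fold, IL1RN, the interleukin-1 receptor antagonist, 6.36-fold (9.29 ± 0.22 against 6.62 ± 0.22, adjusted p = 9.6e-19), and GPER1 5.85-fold (10.05 ± 0.40 against 7.50 ± 0.24, adjusted p = 3.1e-15). LTN1, a ligase of ribosome quality control, rose 5.31-fold (adjusted p = 3.1e-16) and was called on all 3 of its probes. GRIK1, a glutamate receptor, GCG, which encodes glucagon, and C5orf46 were detected on no Normal array and were at least 2.60-fold, 2.80-fold and 3.74-fold higher.

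The largest decreases outside the androgen list are given with their levels with R1881. S100P, a calcium-binding protein, was at 5.89, 6.17, 6.41, 6.74 and 6.29 with vehicle. Its Normal values were 8.92 to 9.35 (median 9.21). It fell 7.35-fold (-2.88 ± 0.15, adjusted p = 2.0e-16), and with R1881 it read 6.21 ± 0.32, the vehicle level. TM4SF1, a membrane protein related to tetraspanins, was 9.20 ± 0.22 with vehicle, 11.54 ± 0.13 in Normal and 9.25 ± 0.08 with R1881 (5.04-fold lower with vehicle, adjusted p = 8.3e-19). ACTA2 with R1881 was 8.46 ± 0.22, also the vehicle level. PRAG1, a pseudokinase, was 5.89 ± 0.22, 7.69 ± 0.20 and 8.71 ± 0.09 in the same order. PGC, a pepsinogen, and AFF3, a nuclear factor, were detected on no vehicle array and were at least 2.13-fold and 1.99-fold lower.

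Small noncoding RNAs were among the largest increases, and the class was chosen after its values were seen. SNORA12, a guide RNA for ribosomal RNA pseudouridylation, was at 8.92, 9.02, 8.84, 8.79 and 8.18 with vehicle. Its Normal arrays ran from 5.70 through 5.81 to 6.16, of which 2 detected it. It rose 7.46-fold (2.90 ± 0.13, adjusted p = 6.7e-18). RNU4ATAC, the U4atac RNA of the minor spliceosome, rose 5.85-fold (9.54 ± 0.28 against 6.99 ± 0.33, adjusted p = 8.5e-14). Of 16 small nuclear RNA genes 5 rose (31.25%) and none fell. Apart from RNU4ATAC, all of those that rose were U1 genes. They were RNU1-1 (1.33) and RNU1-3 (1.99), which are near-identical copies, and the U1 variants RNVU1-7 (1.98) and RNVU1-18 (1.81). Their probes may share signal, so the share may not stand for 5 separate changes. Of 279 small nucleolar RNA genes 4 rose (1.43%) and 19 fell (6.81%), with SNORD17 (-1.03) and SNORA24 (-1.03) lowest. Over all genes 3.29% rose and 2.93% fell. Only 97 of the 279 were detected on any vehicle or Normal array, and 47 on all of them. Some of the 19 lay near background. SNORD96B and SNORD100 were detected on no vehicle array and on 2 Normal arrays, and SNORD46 and SNORA5C on none and 4. Others, such as SNORA24 and SNORD16, were detected on all vehicle and Normal arrays. The share that fell thus may not stand for the class. The mean of all small nuclear and nucleolar RNAs was 5.58 to 5.62 on vehicle and 5.59 to 5.68 on Normal arrays.

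HIF12 cells shared most of this shift. There 765 genes (3.82%) were higher with vehicle and 544 (2.71%) lower. Of the 659 genes higher in LNCaP/Empty 462 (70.1%) were higher in HIF12, which were 60.4% of the HIF12 genes, and of the 587 lower genes 323 (55.03%) were lower in HIF12, or 59.4% of its genes. The sign of the shift was the same for 1227 of the 1247 genes called in LNCaP/Empty. Of the androgen response list 30 members fell in HIF12 and 3 rose. Of the androgen repressed list 14 rose and 3 fell, and of the G1/S and G2/M lists 15 and 22 fell. Other lists were less alike. In HIF12 no fatty acid synthesis gene fell and 3 rose, beside 5 and 2 in LNCaP/Empty (medians -0.13 and -0.36). Of 10 metallothioneins 4 rose and 1 fell in HIF12, beside 1 and 2 in LNCaP/Empty. Of 40 interferon response genes 7 fell, beside 2. The difference of the shifts was called for none of the fatty acid or interferon genes and for 2 metallothioneins. In HIF12 KLK2 was at -3.37, KLK3 at -2.14, DDC at 2.94, TM4SF1 at -2.82 and SNORA12 at 2.99. On HIF12 vehicle replicate 4 TMPRSS2 was at 12.54, inside its HIF12 Normal range (12.32 to 12.64). The other HIF12 vehicle arrays were at 11.04 to 11.25. KLK2 (7.67) and FKBP5 (10.11) were also highest on replicate 4 among these vehicle arrays, while KLK3 (6.73) was not. The HIF12 list counts were not repeated without that array.

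The difference of the shifts was called for 18 genes (0.0898%) with a higher and 28 genes (0.14%) with a lower value in LNCaP/Empty than in HIF12. Of the androgen response list none was among them. AGR2, a disulfide isomerase of secretory cells, was at 7.94, 8.20, 8.29, 8.01 and 8.19 with vehicle in LNCaP/Empty. Its Normal arrays ran from 9.00 through 9.60 to 10.02, a 2.73-fold drop (adjusted p = 1.2e-07). In HIF12 it was 8.46 ± 0.19 with vehicle and 7.97 ± 0.36 in Normal, and the shifts differed by -1.94 ± 0.25 (SE, adjusted p = 4.9e-05). The line with the higher Normal level was the one in which AGR2 fell. A second probe of AGR2 was not called.

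S100P fell in both lines, by 2.88 in LNCaP/Empty and by 1.42 in HIF12 (difference -1.46 ± 0.21, adjusted p = 0.00033). IGFBP3 rose in both, by 2.51 and 4.19 (difference -1.68 ± 0.34, adjusted p = 0.020). The HIF12 arrays of IGFBP3 were at 10.80 ± 0.26 with vehicle and 6.61 ± 0.14 in Normal. UGT2B17 rose by 1.55 and 2.38 (difference -0.84 ± 0.16, adjusted p = 0.0072) and CAMK2N1 by 1.41 and 2.62 (difference -1.21 ± 0.14, adjusted p = 1.4e-05), and both started from a lower Normal level in HIF12, at 10.97 ± 0.16 and 10.38 ± 0.05, than in LNCaP/Empty, at 12.74 ± 0.19 and 12.31 ± 0.32. SLC39A8, a zinc and manganese importer, was called higher in LNCaP/Empty (0.60) and lower in HIF12 (-0.63), with a difference of 1.23 ± 0.20 (adjusted p = 0.0012). Its call in LNCaP/Empty was lost without Normal replicate 4 (0.50) or vehicle replicate 2 (0.53).

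**Figure D4:**
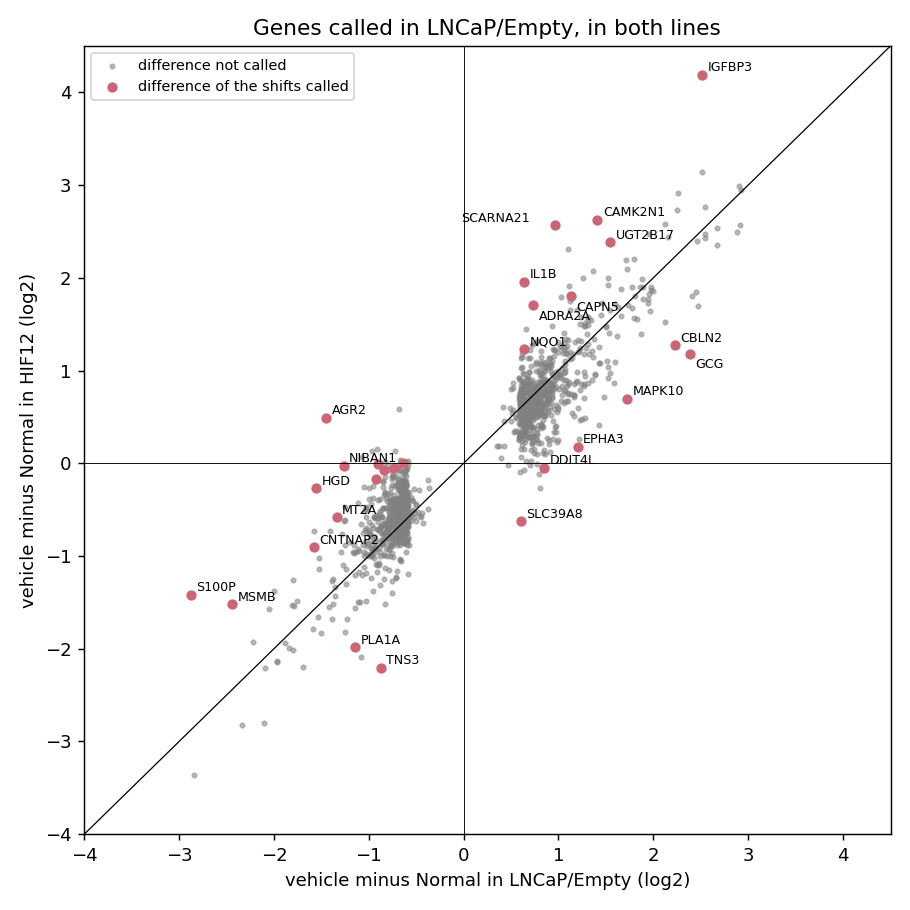
Difference between vehicle and Normal in LNCaP/Empty (x axis, log2) and in HIF12 (y axis, log2) for the genes called in LNCaP/Empty; red points are genes whose difference of the shifts was called and the diagonal marks equal shifts. Most points lie along the diagonal. AGR2 (-1.45 and 0.49) and SLC39A8 (0.60 and -0.63) lie in opposite quadrants, and the 5 red points without a name, at negative values in LNCaP/Empty and near 0 in HIF12, are PRSS27, MLKL, ANKRD29, DDIT4 (-0.73 and -0.05) and PCK2.

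The counts of the ATF4 list were unlike in the lines. In LNCaP/Empty 14 of 33 members fell and none rose, while in HIF12 CTH fell and PCK2 rose on another of its probes, with medians of -0.53 and -0.07. The shift was lower in LNCaP/Empty for 32 of the 33 members, with a median difference of -0.41. Gene by gene the difference was called for DDIT4 and PCK2. DDIT4, which restrains mTORC1 under stress, was at 11.59, 11.65, 11.64, 11.55 and 11.86 with vehicle in LNCaP/Empty, and its 6 Normal arrays were at 12.10 to 12.72. In HIF12 the arrays were at 11.97 ± 0.08 and 12.02 ± 0.10 (difference of the shifts -0.68 ± 0.13, adjusted p = 0.0097). PCK2, a mitochondrial enzyme that makes phosphoenolpyruvate, was 11.90 ± 0.12 and 12.55 ± 0.15 in LNCaP/Empty and 12.07 ± 0.06 and 12.06 ± 0.08 in HIF12 (difference -0.64 ± 0.09, adjusted p = 0.00034). PCK2 had 3 probes, and only this one was called in LNCaP/Empty. The difference of the list as a whole was not tested, since its members respond to 1 pathway and are not replicates of each other. The labels give no age or nutrient level of the medium.

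**Figure D5:**
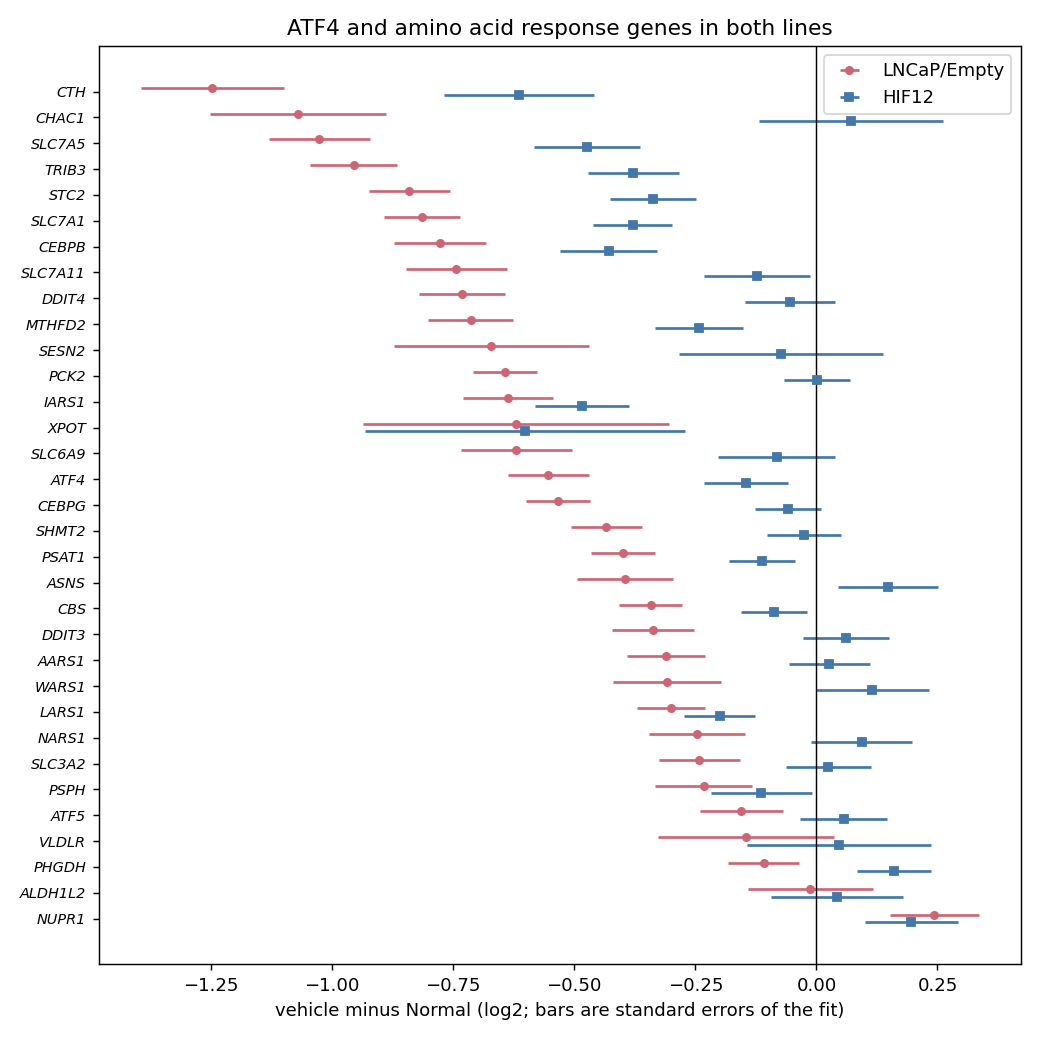
Difference between vehicle and Normal (x axis, log2, bars are standard errors of the fit) for 33 ATF4 and amino acid response genes in LNCaP/Empty (circles) and HIF12 (squares). Circles lie to the left of squares for 32 of the 33 members, the exception being NUPR1 (0.24 and 0.20).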

How the data were processed

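Total RNA was measured on Illumina BeadArrays. The authors deposited scanner intensities per probe without background correction, a detection p-value per probe and a normalized table of linear intensities, whose columns share 1 distribution. The scanner software is not given in the sources used here, and the methods name an older array than the probe annotation. Intensities were corrected with the negative-control model of limma 3.58.1 (R 4.3.3, nec, offset 16), quantile normalized over all 36 arrays and taken to log2. In lmFit and eBayes each of 7 groups had a mean. A gene was called at a Benjamini-Hochberg adjusted p under 0.05 over 48105 probes and at least 1.5-fold on at least 1 probe. Of 48107 probes, 2 had missing values, 30112 had 1 gene, 8 several and 17985 none named. Values are of the probe with the largest moderated t, and list medians of the brightest probe. A probe not detected (p of 0.01 or above) on any array of a group gives a bound against the dimmest detected signal. The number of arrays limits precision. The steps were tested on simulated data.

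The members and the 36 lists were chosen with earlier results of these data known. Named were the 15 largest changes each way that did not overlap, up to 4 members of each list by moderated t, a set of genes given whatever they did, and the 5 largest differences of the shift each way. Other genes were named after their values were seen. The replicate numbers did not pair the arrays, with correlations of same-numbered deviations between -0.23 and 0.08. Alternatives were no background correction, plain normexp, other scaling, the deposited normalized table, array weights, running-number blocks and each array left out. Promoters are from RefSeq (GRCh38.p14). Some genes are not reported here.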

Additional observations from a re-analysis of the deposited data

Results flagged for a closer look

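Only LNCaP/Empty groups were checked for an outlying array. An array stood far from the rest of its group, by the ratio of its gap to the range of the group, in 14 of 242 groups of values (5.79%), where chance marks about 1 in 20. Vehicle replicate 5 was the array in 6 of them: PLA2G2A at 9.75, ASPM at 8.45, PINK1 at 9.45, LDHB at 11.87, SNORA12 at 8.18 and TUBB3 at 10.13. Vehicle replicate 2 was the array for GRIK1 at 6.98, MCM2 at 8.89 and SCD at 12.86. Normal replicate 4 was the array for NEU1 at 9.25, FADS1 at 10.24 and SLC39A8 at 8.91. In Normal, replicate 3 stood apart for ACTA2 at 10.64 and replicate 2 for XBP1 at 12.55.

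The shift from Normal to vehicle differed between LNCaP/Empty and HIF12 by the contrast of both shifts in limma. It was lower in LNCaP/Empty for AGR2 (-1.94), IGFBP3 (-1.68), S100P (-1.46), NIBAN1 (-1.24), MSMB (-0.92), UGT2B17 (-0.84), MT2A (-0.76), DDIT4 (-0.68) and PCK2 (-0.64). The same held for the small Cajal body RNAs SCARNA21 (-1.61) and SCARNA23 (-1.56), of which SCARNA23 was not called in LNCaP/Empty. It was higher in LNCaP/Empty for TNS3 (1.33), SLC39A8 (1.23), GCG (1.20) and DAPL1 (1.18). DAPL1 was not detected on any of the 11 LNCaP/Empty arrays, and TNS3 only on 1 of the Normal arrays. NIBAN1 was near background in HIF12, at 5.08 to 6.00 in Normal and 5.21 to 5.55 with vehicle. MSMB was below the dimmest detected signal on vehicle arrays of both lines (4.71 to 5.40 in LNCaP/Empty, 4.46 to 4.87 in HIF12). Its Normal arrays were at 7.32 to 7.64 in LNCaP/Empty and 5.95 to 6.35 in HIF12. The differences of both genes thus rest in part on signals near background.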

How the results depend on the processing

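No named gene that was called changed sign, and the signs of genes not called were not compared. With median scaling and with no minimum fold more genes were lower than higher, the opposite of the 659 and 587 reported. These became 305 and 214 both without background correction and in the deposited normalized table, 350 and 264 with plain normexp, and 1729 and 1862 with no minimum fold. In HIF12 the 765 and 544 became 337 and 194 without background correction, 337 and 195 in the deposited table, 383 and 246 with plain normexp, and 1761 and 1624 with no minimum fold. The 18 differences of the shift that were higher in LNCaP/Empty became 31 with only the compared arrays and 36 with array weights. Median scaling gave 570 higher and 714 lower. With 1 array left out the counts were 641 to 681 and 550 to 619 in LNCaP/Empty, 737 to 783 and 526 to 573 in HIF12, and 15 to 25 and 21 to 32 for the difference. The numbers did not pair the arrays, and with a replicate block 651 genes were higher and 586 lower. Of 2780 values of 121 named genes over 23 alternatives, 115 lost and 15 gained a call. Androgen response genes that fell went from 41 to 23, fatty acid genes from 5 to 3 and hypoxia genes from 7 to 4 without background correction, which compresses dim probes. The causes were not tested. Probes near background carry the least precise folds.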
